A study of Homo sapiens with 12 samples.

Results

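Hemogenic endothelium, here the CD31+CD34+ cells taken on day 5 of blood differentiation from H1, was compared with every other stage of the same series: undifferentiated H1 cells, APLNR+ cells of day 2 and CD43+ cells of day 8. H1 is a widely used human embryonic stem cell line, so all populations carry the genome of a single line. Per the labels, cultures for APLNR+ cells received activin A and BMP4 alone. Those for CD31+CD34+ and CD43+ cells received activin A and BMP4 and then VEGF and bFGF, and no factor is listed for H1. The cells of each day were selected by the surface proteins they are named for. RNA-seq gave 3 libraries of CD31+CD34+ cells among 12 in all, and the 9 others were 3 libraries each of H1, APLNR+ and CD43+ cells. The labels do not say that same-population libraries came from separate cultures, and the study's methods speak of independent experiments in general without naming these libraries, so p-values measure a spread that may be in part technical. A gene was described as a member where its lowest CD31+CD34+ library lay above the highest of the 9 other libraries, or its highest below their lowest. Of 14840 genes tested, 1895 (12.8%) lay above in this way and 1804 (12.2%) below. These counts are a description, since the rule used the same values.

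Hemogenic endothelium is the vascular lining from which the first blood progenitors bud in the embryo. Its cells wear the junction and receptor proteins of endothelium (VE-cadherin, VEGF receptors, TIE receptors) while they switch on blood regulators such as TAL1, GATA2 and RUNX1, and they lose the endothelial proteins as they round up into blood cells. CD31 and CD34 are surface proteins of endothelial and early blood cells, APLNR is the apelin receptor of early mesoderm and vessels, and CD43 marks the blood progenitors that follow.

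Levels are given in FPKM, a fragment count corrected for gene length and library size, and differences are given on the log2(FPKM + 1) scale, which understates changes at low levels. How many reads each library had is unknown, but steps between low values placed CD31+CD34+ replicate 1 at 0.551 and replicate 2 at 1.28 times the depth of CD43+ replicate 3, the shallowest and the deepest of the 12 libraries. An exact 0 can be a failed estimate, because EEF1A1, a translation factor of every cell, was listed at 0 in 6 libraries of the other populations and at 1839 to 2329 FPKM in the CD31+CD34+ libraries. Those 6 were replicates 2 and 3 of H1, APLNR+ and CD43+ cells, whose replicate 1 libraries held 4616, 3108 and 4494 FPKM. In RNA of whole populations, fewer cells of a type and less RNA per cell cannot be told apart.

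The sorted proteins and the genes that mark this stage were examined first. PLVAP, which forms the diaphragms of endothelial caveolae and fenestrae, was at 181, 255 and 224 FPKM in the 3 CD31+CD34+ libraries, 71.7, 93.2 and 80.2 FPKM in CD43+ cells and at most 0.271 FPKM in H1 and APLNR+ cells. CDH5, the VE-cadherin of endothelial junctions, was at 79.1, 108 and 103 FPKM against 26.5, 38.4 and 36.7 FPKM in CD43+ cells and at most 0.279 FPKM before. SOX7, a SOX-F transcription factor of early endothelium, was at 13.2, 15.1 and 13.8 FPKM against at most 2.99 FPKM in the 9 others. For all 3 genes the groups did not overlap and CD43+ cells came next. CST1, a secreted inhibitor of cysteine proteases, was at 88, 165 and 154 FPKM against at most 3.49 FPKM elsewhere. For CST1, 27.3% of the 50-base stretches of its transcript also occur in other genes, mostly CST4 and CST2, so reads can be split between them, as is the case for 38.9% of SOX7, whose transcript shares sequence with PINX1.

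CD34 was at 39.8, 53.4 and 50 FPKM and lay above the CD43+ libraries (17.4, 24.1 and 25.1 FPKM) by 1.08 ± 0.14 (SE, limma adjusted p 0.000139). The cells were selected by CD34 protein, so the sorting in part set this difference and the p-value is no independent support. Without CD31+CD34+ replicate 2 this difference was 0.99 and without CD43+ replicate 1 it was 0.92, both under the 2-fold minimum. PECAM1, which encodes CD31, was not highest here: it stood at 50.9, 59 and 55.6 FPKM against 82.6, 101 and 104 FPKM in CD43+ cells. APLNR was at 381, 429 and 398 FPKM, next to 388, 402 and 359 FPKM in APLNR+ cells, and these overlapped. SPN, which encodes CD43, was at 2.84, 4.2 and 4.06 FPKM, above H1 and APLNR+ cells (at most 0.557 FPKM) and far under CD43+ cells (60.3 to 90.6 FPKM). CD34 and PECAM1 were both far above H1 and APLNR+ libraries, and of the genes of the 4 sorted proteins only CD34 was above all 9 other libraries.

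Marker lists of 7 cell types were then read across the libraries. A gene was called against the nearest population where limma gave an adjusted p under 0.05 in comparison with each of the 3 other populations and a difference of at least 2-fold from the closest. Over all tested genes 356 (2.4%) were raised in this way and 112 (0.755%) lowered. Against the mean of the other populations, a looser call, 1374 (9.26%) were raised and 1624 (10.9%) lowered. Of 30 endothelial junction and surface genes tested, 12 were raised against the nearest population, 25 against the mean, and 14 lay above all 9 other libraries, where 12.8% of all tested genes lay. The list holds PECAM1 and CD34, the genes of proteins used for sorting, and the stage markers PLVAP and CDH5. CD34, PLVAP and CDH5 were among the 12, so these counts were in part set by the sorting and the choice of markers. The list's summed level was 2112 to 2358 FPKM in CD31+CD34+ libraries, 903 to 1084 FPKM in CD43+, 134 to 141 FPKM in APLNR+ and 191 to 206 FPKM in H1 libraries, without overlap between CD31+CD34+ libraries and the rest. SELE, the E-selectin by which endothelium catches leukocytes, was at 10.7, 14.4 and 12.8 FPKM against at most 1.43 FPKM, 2.71 ± 0.13 (SE, limma adjusted p 4.39e-08) from CD43+ cells. EGFL7, a secreted protein of growing vessels, reached 942, 898 and 754 FPKM against 209.5, 235 and 173 FPKM in CD43+ cells, a difference of 2.07 ± 0.18 (SE, limma adjusted p 5.48e-06). ENG, the endoglin co-receptor for TGF-beta and BMP9, was at 12, 13 and 10.8 FPKM against at most 2.57 FPKM. Other endothelial genes stood higher in CD43+ cells, among them STAB1 (66.9 against 45.9 FPKM), ICAM2 (133 against 89.6 FPKM) and SELP (17 against 1.88 FPKM). JAM2, LYVE1 and CLEC1A did not pass the filter.

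**Figure D1:**
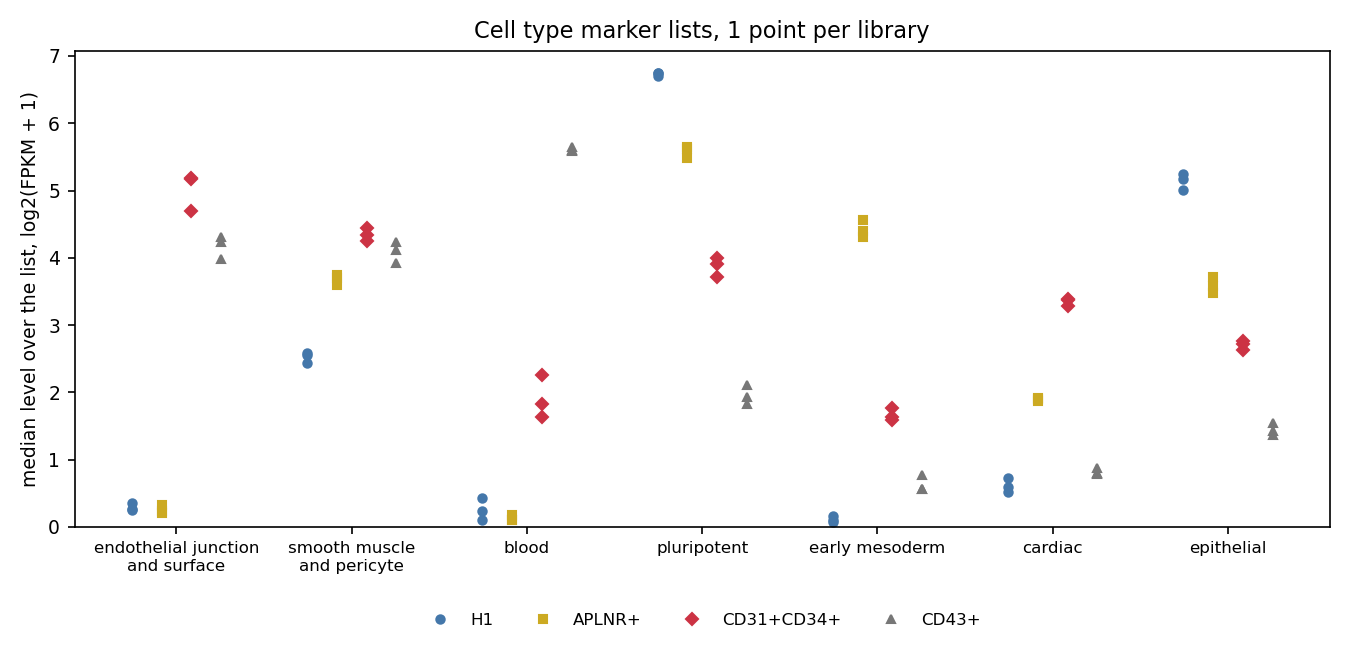
Median level of each cell type marker list, in log2(FPKM + 1) on the vertical axis, with 1 point per library and a colour and shape per population. The endothelial list is highest in the CD31+CD34+ libraries (medians of 4.70 to 5.19) and next in CD43+ libraries (3.98 to 4.31), and the pluripotent, early mesoderm and blood lists peak in H1, APLNR+ and CD43+ libraries.

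Markers of other cell types were also measured in the CD31+CD34+ libraries. For comparison, 12.8% of all tested genes lay above all 9 others. Of 14 smooth muscle and pericyte genes tested, 3 were raised against the nearest population and 5 lay above all others, and the list summed to 1035 to 1086 FPKM against 706 to 869 FPKM in APLNR+ libraries and less elsewhere. The 3 were RGS5, a pericyte regulator of G protein signaling (197, 264 and 291 FPKM against at most 59.7 FPKM), and the fibrillar collagens COL1A1 and COL1A2 (85 and 251 FPKM on average). These 3 made up much of the list's sum. The list's median level was closer to that of CD43+ libraries, at 4.25 to 4.44 on the log2(FPKM + 1) scale against 3.93 to 4.24. After the GC adjustment described below 2 of the 3 were called, with COL1A2 at 0.997. ACTA2, the smooth muscle actin, was instead higher in CD43+ cells (34.8 against 13.3 FPKM), and MYH11 and LMOD1, late smooth muscle genes, did not pass the filter. Of 22 blood genes tested, 2 lay above all others (TAL1 and EPOR), HBZ and HBA1 were listed at 0, and the sum was 177 to 196 FPKM against 2872 to 3475 FPKM in CD43+ libraries. The early mesoderm list summed to 126 to 133 FPKM against 2598 to 2778 FPKM in APLNR+ libraries, and the pluripotent list to 411 to 506 FPKM against 2865 to 2983 FPKM in H1 libraries. MSX1, a homeodomain factor, was the 1 early mesoderm gene raised against the nearest population (1.03), and it was not called without APLNR+ replicate 1 (0.92), without CD31+CD34+ replicate 1 (0.99) or after the GC adjustment. Of 6 cardiac genes tested, NKX2-5 was raised against the nearest population and ACTC1 and ISL1 also lay above all others, while TNNT2 and NPPA averaged 0.266 and 0.116 FPKM. Of 13 epithelial genes, KRT8 and KRT18, keratins of simple epithelia and early mesoderm, lay above all others by 0.317 and 0.299 on the log2 scale, and not after the GC adjustment. The epithelial list summed to 1452 to 1638 FPKM against 1109 to 1243 FPKM in APLNR+ libraries, most of it from KRT8 and KRT18, which averaged 654 and 619 FPKM here. Its median level was lower here, at 2.63 to 2.76 on the log2(FPKM + 1) scale against 3.47 to 3.72 in APLNR+ and 5.01 to 5.24 in H1 libraries. The cardiac list summed to 133 to 164 FPKM against 172 to 195 FPKM in APLNR+ libraries. Its median level was instead highest here, at 3.28 to 3.38 on the log2(FPKM + 1) scale. In APLNR+ libraries that median was 1.87 to 1.92, and in CD43+ and H1 libraries at most 0.869. The part of other cells in the results below was not tested.

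The members were unevenly close to the other stages. The margin, the log2 distance between the outermost CD31+CD34+ library and the closest of the 9 others, had a median of 0.30 among the genes above and 0.21 among those below. It reached 1 in 211 genes above and 31 below, and 2 in 31 genes above. For 1117 of the genes above (58.9%) CD43+ cells had the next highest mean, for 551 APLNR+ cells and for 227 H1 cells. CD43+ cells also came next for 1311 of the genes below (72.7%). Of the genes above, 102 passed the filter through the CD31+CD34+ libraries alone, and 3 of those below were listed at 0 in all CD31+CD34+ libraries. The other stages had their own members by the same rule, with 3447 genes above and 1937 below in H1, 1457 and 1634 in APLNR+ cells and 1706 and 1858 in CD43+ cells. The CD31+CD34+ library closest to the others was replicate 1 in 881 of the genes above and replicate 3 in 865. Without replicate 1 there were 2442 genes above, and in replicate 1 alone 23.8% of genes stood above and 27.1% below the replicate 1 libraries of the 3 other populations.

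A property of the transcripts moved with this comparison. Protein-coding genes above had a median transcript GC content of 57.5% and those below 41.4%, against 48.9% over the 12782 tested. Genes were put in 10 equal bins of GC content. In the lowest bin (30.2% to 38.7%) the median difference of CD31+CD34+ cells from the mean of the others was -0.79, and 1.33% of genes lay above and 31.1% below. In the highest bin (62.1% to 74.5%) the median difference was 0.56, and 29.8% lay above and 1.09% below. The other populations had trends of their own, rising with GC content in CD43+ cells (from -0.62 to 0.17) and falling in H1 (from 0.80 to -0.40) and APLNR+ cells (from 0.58 to -0.44). The trend was present in each CD31+CD34+ library, with a Spearman correlation across genes of 0.62, 0.58 and 0.53 between GC content and the deviation from the mean of the 12 libraries (genes of a library share its depth and preparation). When a smooth trend on GC content was taken out of each library, a setting added after the data were seen, 1157 of the 1877 genes above that had a GC value and 888 of 1768 below stayed outside the other libraries. Of calls against the nearest population, 220 of 354 raised and 41 of 108 lowered were kept. The part of GC content in the results was not tested, and differences with this trend taken out are called GC-adjusted. They are given below where they change how many genes of a list were called against the nearest population.

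**Figure D2:**
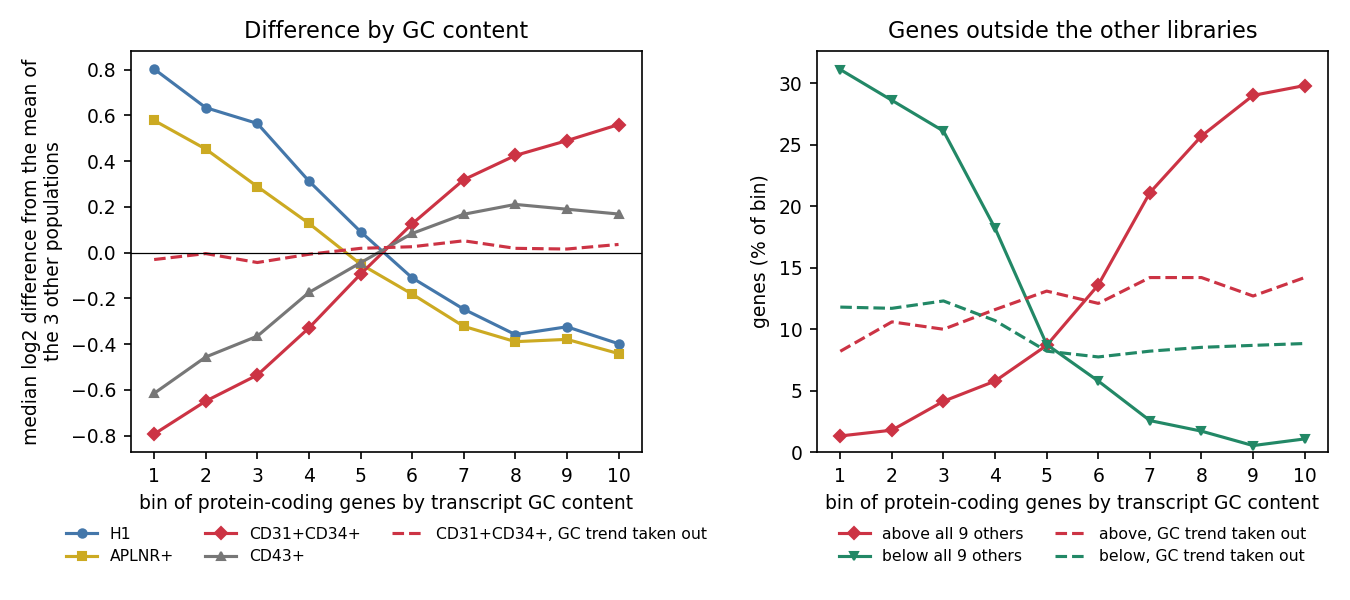
Left, median log2 difference of each population from the mean of the 3 others in 10 equal bins of protein-coding genes by transcript GC content, with the CD31+CD34+ line repeated with the GC trend taken out (dashed). Right, share of each bin in percent that lay above or below all 9 other libraries, as deposited (solid) and with the trend taken out (dashed). The CD31+CD34+ line climbs from -0.79 to 0.56, and the dashed line on the left stays between -0.04 and 0.05.

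The protein-coding genes with the largest margin above, among those averaging at least 5 FPKM, included secreted signals and transcription factors. SOST encodes sclerostin, a secreted inhibitor of Wnt signaling known from bone, and it had the largest margin (4.63): 43.3, 50.6 and 46.2 FPKM in CD31+CD34+ libraries against 0.535, 0.796 and 0.792 FPKM in CD43+ libraries and at most 0.0872 FPKM before. SP7, the osterix factor of bone-forming cells, was at 7.15, 8.99 and 9.61 FPKM against at most 0.17 FPKM. SP6, a related zinc finger factor, was at 78, 71.9 and 66.5 FPKM against at most 3.43 FPKM. APLN, the apelin ligand of APLNR made by sprouting endothelium, was at 22.4, 26.6 and 23.7 FPKM and at no more than 0.293 FPKM in any other library, a mean 88.2 times that of the next population. In APLNR+ cells, which held its receptor at 383 FPKM, the ligand averaged 0.026 FPKM.

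PRR9, a proline-rich protein gene of the epidermal cluster, was at 27.8, 31.9 and 28.7 FPKM and next in APLNR+ cells (1.14, 1.49 and 1.19 FPKM). ADAMTSL2, a matrix protein that binds fibrillin and modulates TGF-beta, averaged 25.4 ± 2.57 FPKM (SD, n = 3) against 1.25 FPKM in APLNR+ cells. LRRC4B, a synaptic adhesion protein, averaged 22.5 ± 2.09 FPKM against at most 1.57 FPKM in any other library. ZAP70, a kinase of T cell receptor signaling, was at 68.5, 76.6 and 66.1 FPKM and already at 8.92, 8.97 and 7.78 FPKM in APLNR+ cells, and lower again in CD43+ cells (2.26, 2.16 and 2.44 FPKM). NKX2-5, a homeodomain factor of heart and pharyngeal mesoderm, was at 21.8, 23 and 20.3 FPKM against at most 2.93 FPKM. PCSK2, a prohormone convertase, averaged 14.2 ± 1.13 FPKM, and RFPL1, whose transcript shares 23.7% of its 50-base stretches with other genes, chiefly RFPL3 and RFPL2, averaged 5.7 ± 0.444 FPKM. These genes were chosen for their margin, so their CD31+CD34+ libraries had to stand apart. SOST, APLN, SP7 and RFPL1 were under 1 FPKM in all 9 other libraries. They passed the filter through the CD31+CD34+ libraries alone.

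Endothelial signaling genes filled the remaining places. JAG2, a Notch ligand, was at 27.9, 31.2 and 27.2 FPKM against 3.13, 4.41 and 3.41 FPKM in CD43+ libraries. MCAM, the adhesion molecule CD146 of endothelium and pericytes, was at 126, 139 and 127 FPKM, with APLNR+ and CD43+ cells both averaging 23 FPKM. NOS3, the endothelial nitric oxide synthase, was at 38.7, 43.9 and 39.3 FPKM against 6.52, 7.12 and 5.57 FPKM in CD43+ libraries, and it overlaps ATG9B on the opposite strand. All 15 genes also lay above the 9 others once the GC trend was taken out. They were chosen for large margins, so this was likely from the outset.

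**Figure D3:**
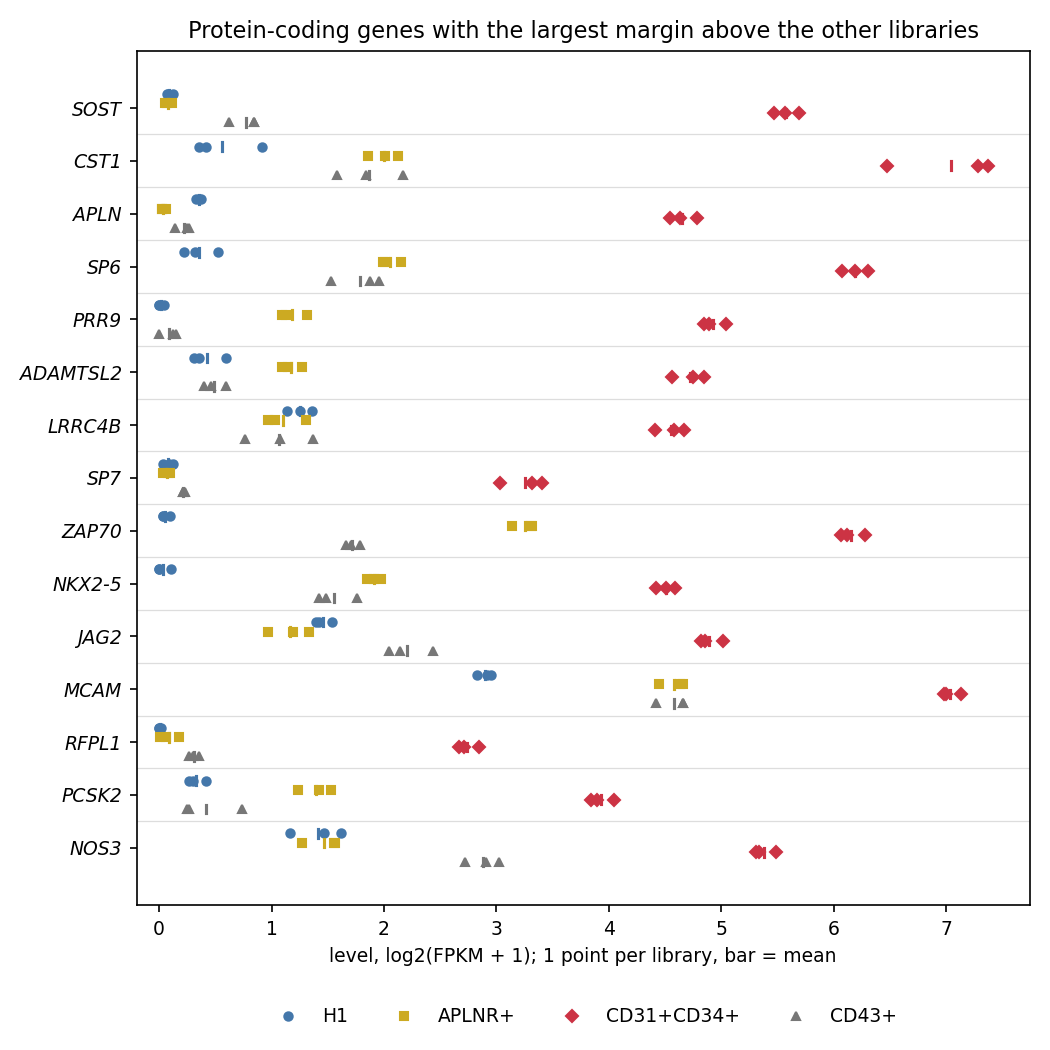
Levels of the 15 protein-coding genes with the largest margin above, in log2(FPKM + 1) on the horizontal axis, with 1 point per library and a bar at each population's mean. The 3 CD31+CD34+ points of every gene stand apart on the right, by a margin of 2.29 for NOS3 up to 4.63 for SOST.

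The sequence upstream of a few of these genes is shown so that they can be read beside the counts of promoter words further on. Each run holds the 150 bases before the start site in RefSeq (GRCh38.p14), 5′ to 3′ on the strand of the gene, and capitals mark any of the words searched. The genes are PLVAP, which marks this stage, SOST, APLN and PRR9, which had 3 of the largest margins, and FAM162A, which was among the largest margins below.
PLVAP (chr19:17377343-17377492, minus strand): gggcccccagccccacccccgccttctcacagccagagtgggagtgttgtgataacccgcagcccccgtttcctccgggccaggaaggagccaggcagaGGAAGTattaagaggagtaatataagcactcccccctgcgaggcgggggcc
SOST (chr17:43758792-43758941, minus strand): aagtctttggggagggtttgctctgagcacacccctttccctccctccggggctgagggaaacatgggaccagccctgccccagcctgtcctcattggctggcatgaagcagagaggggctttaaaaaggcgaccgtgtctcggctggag
APLN (chrX:129654957-129655106, minus strand): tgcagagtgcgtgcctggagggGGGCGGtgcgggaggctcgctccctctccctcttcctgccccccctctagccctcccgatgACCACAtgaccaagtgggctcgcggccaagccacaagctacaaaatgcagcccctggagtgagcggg
PRR9 (chr1:153217434-153217583, plus strand): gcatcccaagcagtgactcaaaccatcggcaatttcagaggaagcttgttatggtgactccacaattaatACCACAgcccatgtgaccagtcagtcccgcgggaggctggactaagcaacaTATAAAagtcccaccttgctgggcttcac
FAM162A (chr3:122384032-122384181, plus strand): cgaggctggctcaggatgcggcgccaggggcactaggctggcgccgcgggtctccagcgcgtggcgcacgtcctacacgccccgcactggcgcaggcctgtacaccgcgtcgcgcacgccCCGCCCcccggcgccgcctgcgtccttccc
The PLVAP run holds 1 word, the ETS word GGAAGT. The PRR9 run holds TATAAA close to the start site and a RUNX word on the opposite strand, the APLN run a GC box and a RUNX word, the FAM162A run a GC box, and the SOST run none.

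Gene lists of vascular and general functions, 23 in all with the marker lists, held 436 tested genes. Among them 69 were raised against the nearest population by limma and 2 lowered, LDHB and NPM1, against 2.4% and 0.755% of all tested genes. At an unadjusted limma p under 0.05, 17 listed genes lay below the nearest population. Over all 14840 tested genes 1345 did so at a stricter adjusted p under 0.05 with no minimum difference. The median difference from the mean of the others over all tested genes was -0.06.

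**Figure D4:**
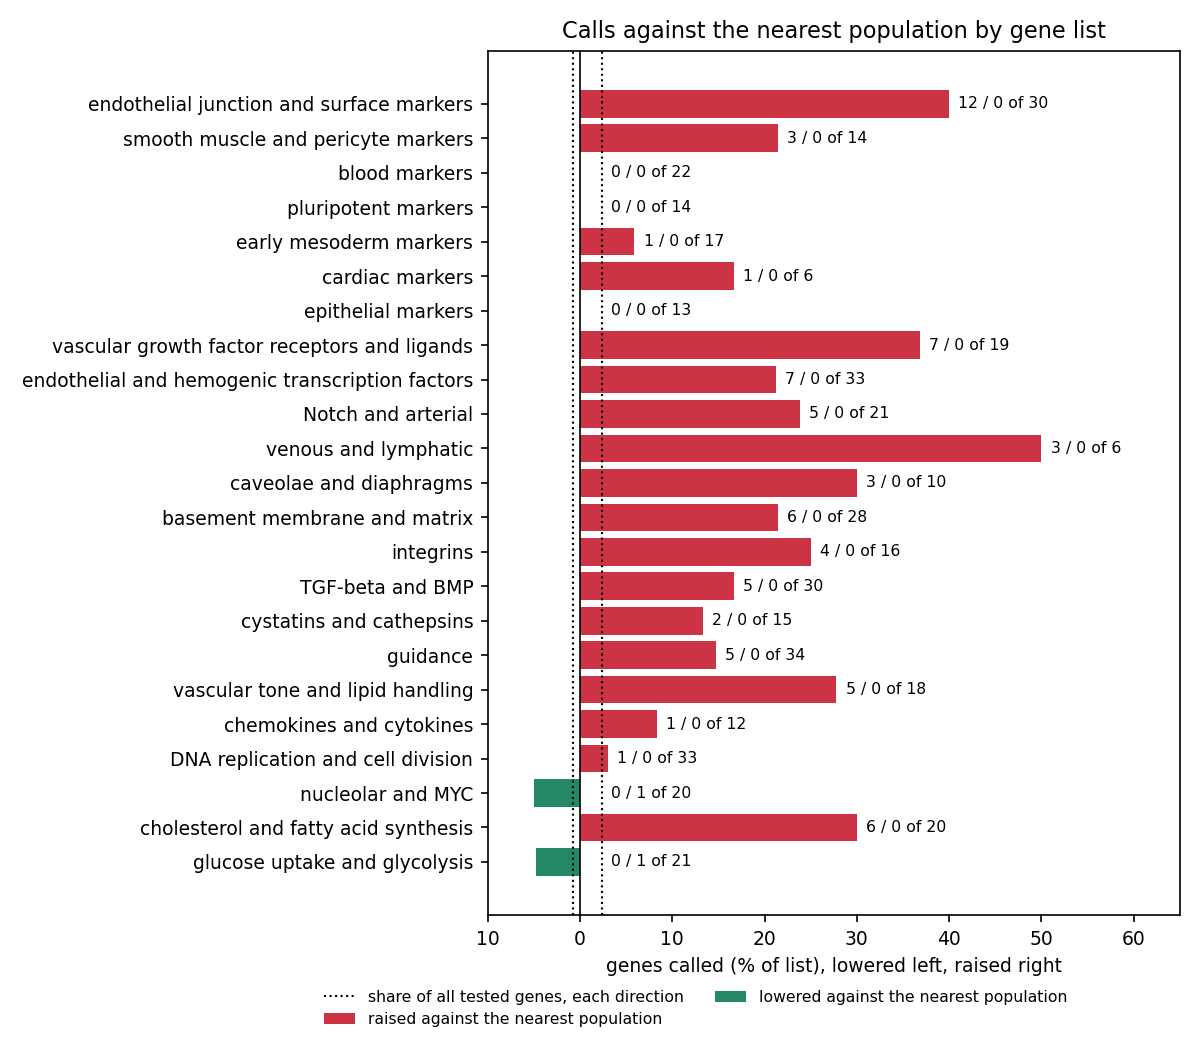
Share of each gene list, in percent of its tested genes, that was raised (right) or lowered (left) in CD31+CD34+ cells against the nearest population, with the counts raised and lowered beside each bar. The dotted lines mark the shares over all tested genes, 2.4% raised and 0.755% lowered, and the endothelial list stands at 12 of 30.

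Of 19 genes of vascular growth factor receptors and ligands, 7 were raised against the nearest population, all receptors or co-receptors but APLN, and the list's median difference from the mean of the others was 1.06. APLN passed the filter through the CD31+CD34+ libraries alone, so it had to differ. KDR, the main signaling receptor for VEGF, was at 209.9, 310.3 and 309 FPKM against 89.6, 115 and 126 FPKM in CD43+ and at most 63.7 FPKM in earlier cells, a rise of 1.31 ± 0.19 (SE, limma adjusted p 0.000306). FLT1 and FLT4, the VEGF receptors 1 and 3, rose by 1.17 (adjusted p 0.000124) and 1.34 (adjusted p 6.9e-07). TEK, the receptor of the angiopoietins, rose by 1.21 to 47, 56.5 and 56.9 FPKM (adjusted p 8.81e-06). Its relative TIE1 overlapped the CD43+ libraries (104 to 110.4 FPKM here and 89.1 to 108 FPKM there). The neuropilins, co-receptors for VEGF and semaphorins, had APLNR+ cells as the nearest population: NRP1 was at 43.7, 57.4 and 57.4 FPKM and NRP2 at 117, 169.9 and 160.0 FPKM, above it by 1.45 and 1.60. In the whole list 9 genes lay above all 9 other libraries and 2 below, the ligands VEGFA and ANGPT1. Over all tested genes 12.8% lay above and 12.2% below, so the share below was near that of all genes. VEGFA was at 4.56, 5.4 and 5.82 FPKM and ANGPT1 at 0.12, 0.138 and 0.22 FPKM. From the nearest population they differed by -0.29 (adjusted p 0.0567) and -0.82 (adjusted p 0.00121) on the log2(FPKM + 1) scale, which understates changes of low genes: the mean FPKM of ANGPT1 was 6.7 times lower than in H1. After GC adjustment VEGFA still lay below all others and ANGPT1 did not.

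Transcription factors of endothelium and of emerging blood split by the population next to them. Of 33 tested, 7 were raised against the nearest population and 24 against the mean of the others, and 13 lay above all 9 other libraries. Over all tested genes these shares were 2.4%, 9.26% and 12.8%. SOX7, already given as a marker of the stage, was among the 7. KLF2, the flow-responsive factor of endothelium, was at 15.6, 9.14 and 7.92 FPKM against at most 1.08 FPKM, a rise of 2.69 ± 0.20 (SE, limma adjusted p 1.34e-06). NFATC1, a factor of endocardium, rose by 1.92 to 20.4, 20.1 and 19.1 FPKM (adjusted p 1.93e-07). ERG, an ETS factor that maintains endothelium, was at 26.5, 35.6 and 32.5 FPKM against 8.31, 10.6 and 13.8 FPKM in CD43+ cells (difference 1.47, adjusted p 2.92e-05), and BCL6B rose by 1.43. HEY2, a Notch target of arteries, rose by 1.16 above APLNR+ cells. ETV2, the ETS factor that specifies the first endothelium, was low at 6.28, 3.88 and 3.67 FPKM but above at most 1.64 FPKM elsewhere (difference 1.57). After GC adjustment the difference of ETV2 was 0.89 and it was no longer called, while ELK3 was.

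The blood regulators in this list were shared with CD43+ cells. TAL1 was at 87.1, 82.7 and 78.8 FPKM against 60.8, 68.4 and 65.8 FPKM in CD43+ cells, above all other libraries with a difference of 0.35, and FLI1 overlapped the CD43+ libraries (94.6 to 109 against 73.7 to 100.5 FPKM). GFI1, a repressor that turns off the endothelial program, was at 22.3, 24.4 and 21.9 FPKM against 11, 12.5 and 12 FPKM (0.90 on the log2 scale). RUNX1 and GATA2, which drive the step into blood, were lower here than in CD43+ cells: RUNX1 was at 8.88, 8.72 and 10.3 against 35.5, 38.1 and 40 FPKM and GATA2 at 43.6, 57.6 and 49.6 against 79.4, 106 and 86.2 FPKM. NR2F2, FOXC2, PROX1 and HOXA9 did not pass the filter.

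Genes of Notch signaling and arteries, and of veins and lymphatic vessels, were both represented. Of 21 Notch and arterial genes, 5 were raised against the nearest population, and 4 after GC adjustment, UNC5B going from 1.24 to 0.62. GJA5, the connexin 40 of arterial endothelium, was at 35.1, 41.5 and 36.8 FPKM against 12.6, 15.4 and 12.5 FPKM in CD43+ cells, 1.42 ± 0.10 (SE, limma adjusted p 1.15e-06). CXCR4, the receptor of CXCL12, was at 13.9, 19.9 and 20.2 FPKM against at most 7.01 FPKM. DLL4, the Notch ligand of arteries, was higher in CD43+ cells (25.7, 28.4 and 24.8 FPKM) than here (9.84, 9.68 and 8.55 FPKM). RBPJ, the DNA-binding partner of Notch, lay below all 9 others at 3.86, 4.97 and 3.48 FPKM, with CD43+ cells next at 5.89, 9.53 and 8.31 FPKM. Of 6 venous and lymphatic genes tested, NRP2, FLT4 and EPHB4, the ephrin receptor of veins (102, 119.7 and 106 FPKM against at most 46.8 FPKM), were raised against the nearest population, while NR2F2, LYVE1, PROX1 and STAB2 did not pass the filter.

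The caveolae and diaphragm list had 3 of 10 genes raised against the nearest population, PLVAP, EHD2 and CAVIN3, and 2 after GC adjustment. PLVAP was already given as a marker of the stage. EHD2, an ATPase at the neck of caveolae, was at 21, 21.4 and 18.2 FPKM against at most 5.17 FPKM. CAVIN1, the coat protein that caveolae need, lay above all others at 108, 117 and 108 FPKM, by 0.54 from CD43+ cells. CAV1, the structural protein of caveolae, was low, at 0.205, 1.12 and 0.714 FPKM, and overlapped with CD43+ cells (1.3, 0.94 and 0.558 FPKM).

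Basement membrane and matrix genes and the integrins that bind them were read together. Of 28 matrix genes, 6 were raised against the nearest population (4 after GC adjustment), 16 against the mean of the others, and 13 lay above all others. The shares over all tested genes were 2.4%, 9.26% and 12.8%. FN1, fibronectin, was at 555, 661 and 627 FPKM against 150.3, 147 and 141 FPKM in APLNR+ cells, a rise of 2.06 ± 0.09 (SE, limma adjusted p 2.29e-08). COL4A1 and COL4A2, the paired chains of basement membrane collagen, were at 134 and 226 FPKM on average and rose by 2.01 and 1.63 over CD43+ cells. The pair is transcribed from opposite strands of one locus. HSPG2, perlecan, rose by 1.59. Of 16 integrin genes, 4 were raised: ITGA3, a laminin receptor, ITGA5, the fibronectin receptor, and ITGA9 and ITGA10. After GC adjustment 3 were, with ITGA5 at 0.67. ITGA5 was at 150.2, 183 and 172 FPKM against 67.1, 74.8 and 68.4 FPKM in APLNR+ cells and ITGA3 at 19.8, 22.6 and 21.1 FPKM against at most 6.36 FPKM. ITGA1, a collagen receptor, lay below all others at 1.29, 1.43 and 1.12 FPKM, and not after GC adjustment.

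In the TGF-beta and BMP list 5 of 30 genes were raised against the nearest population, and 2 after GC adjustment. ACVRL1, the endothelial receptor ALK1 for BMP9 and BMP10, was at 94.2, 87.5 and 82.1 FPKM against 21.3, 23.8 and 18 FPKM in CD43+ cells, a rise of 2.02 ± 0.16 (SE, limma adjusted p 2.41e-06), and with its co-receptor ENG it kept its call after adjustment (1.84 and 1.67). ID1 and ID3, target genes of these receptors, reached 589, 552 and 488 and 127, 149 and 127 FPKM and rose over APLNR+ cells by 1.08 and 1.33, differences that were 0.50 and 0.79 after adjustment. BMP6 was at 2.82, 3.39 and 3.91 FPKM against at most 0.824 FPKM. It passed the filter through the CD31+CD34+ libraries alone, so it had to differ.

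Among 15 cystatins and cathepsins, CST1, already given as a marker of the stage, and its neighbor CST4 were raised against the nearest population. CST4 was at 4.0, 4.21 and 4.2 FPKM against at most 0.541 FPKM. It passed the filter on low values through the CD31+CD34+ libraries alone, so it had to differ, and 30.2% of its 50-base stretches are shared with CST1 and CST2. CST3, cystatin C, overlapped the CD43+ libraries, at 68, 62.6 and 53.1 against 60.8, 70.2 and 53.4 FPKM. CST2, CST5, CST6 and CSTA did not pass the filter.

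Guidance receptors and their ligands, which shape vessel walls and sprouts, were next. Of 34 guidance genes 5 were raised against the nearest population, and 3 after GC adjustment. PLXND1, the endothelial receptor for semaphorin 3E, was at 263, 359 and 328 FPKM against 102, 125 and 118 FPKM in CD43+ cells, a rise of 1.45 ± 0.13 (SE, limma adjusted p 6.29e-06). SEMA7A, a membrane-anchored semaphorin, was at 25.9, 26.3 and 26.3 FPKM against at most 5.48 FPKM.

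Of 18 genes of vascular tone and lipid handling, 5 were raised against the nearest population, NOS3, NPR1, ECE1, RAMP2 and LPL, and the same 5 after GC adjustment. The difference of LPL (1.01) fell under the minimum without CD31+CD34+ replicate 3 (0.97), CD43+ replicate 1 (0.95) or CD43+ replicate 3 (0.995). NPR1, the receptor of atrial natriuretic peptide, was at 23, 24 and 22.2 FPKM against at most 8.63 FPKM. RAMP2, which turns CALCRL into the adrenomedullin receptor, was at 20.1, 19.7 and 18 FPKM with H1 next (4.71, 4.07 and 4.27 FPKM). FABP5, a fatty acid carrier, lay below all others at 11.7, 12.9 and 14.8 FPKM against 20.1, 21.1 and 25.5 FPKM in CD43+ cells, and 31.3% of its stretches are shared with its pseudogenes. Of 12 chemokine and cytokine genes only CXCR4 was raised, and CXCL8, VCAM1 and 5 others of the list did not pass the filter.

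Of 20 genes of cholesterol and fatty acid synthesis tested, 6 were raised against the nearest population and 11 lay above all 9 others, with a median difference from the mean of the others of 0.73. Over all tested genes 2.4% were raised in this way and 12.8% lay above. FDPS, which makes farnesyl diphosphate, was at 819, 899 and 845 FPKM against 379, 403 and 391 FPKM in CD43+ cells (1.12, adjusted p 2.37e-06). FDFT1, the squalene synthase, was at 366, 386 and 359.7 FPKM, and LSS and MVD rose by 1.28 and 1.22 over APLNR+ cells. After GC adjustment FDFT1 alone kept its call (1.06), while 12 of the 20 lay above all others.

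In the division and growth lists few genes were called. CCND1, cyclin D1 of the G1 phase, was raised, at 167, 149 and 139.9 FPKM against at most 40.2 FPKM. It stood above APLNR+ cells by 2.18 ± 0.16 (SE, limma adjusted p 1.37e-06) and was the 1 gene called against the nearest population of 33 of DNA replication and cell division. In that list 4 genes lay above all others and 2 below. The share above was near the 12.8% of all tested genes, and 12.2% of all tested genes lay below. AURKB, CDC20 and PLK1, which act in mitosis, lay above by 0.21, 0.321 and 0.41, and none of the 3 did after GC adjustment. PCNA, the sliding clamp of DNA replication, lay below all others at 40.8, 48 and 47.4 FPKM, with APLNR+ cells next at 83.7, 92.9 and 91.7 FPKM. Of 20 nucleolar and MYC genes 7 lay below all others and 0 above, and by limma NPM1 was lowered against the nearest population, with 6 lowered against the mean of the others. NPM1, the nucleolar chaperone of ribosome assembly, was at 229.7, 196 and 215 FPKM against 554, 400.0 and 479 FPKM in CD43+ cells and at least 1078 FPKM in APLNR+ and H1 libraries, and 44.4% of its stretches occur in other genes, among them the pseudogenes NPM1P27 and NPM1P39. MYCN was at 5.4, 8.05 and 6.21 FPKM against at least 9.93 FPKM in any other library. After GC adjustment 9 of the list lay below all others and 2 were lowered against the nearest population, NPM1 and MYCN (-1.18).

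Of 21 genes of glucose uptake and glycolysis, 2 lay above all others and 3 below, and against the mean of the others 3 were raised and 1 lowered. Over all tested genes 12.8% lay above all others and 12.2% below, shares near those of this list. PFKP, a phosphofructokinase, was at 153, 155 and 140.3 FPKM against 79.7, 91.2 and 75.7 FPKM in CD43+ cells, and SLC2A3, the glucose transporter GLUT3, at 425, 487 and 476 FPKM against 343, 382 and 369.8 FPKM in APLNR+ cells. Both also lay above after GC adjustment. LDHB, a lactate dehydrogenase subunit, was lowered against the nearest population, at 96.3, 117 and 122 FPKM against 289, 338 and 358 FPKM in CD43+ cells, -1.54 ± 0.12 (SE, limma adjusted p 1.47e-06), and 58.5% of its stretches occur in other genes, among them LDHBP2. LDHA was at 80.3, 109 and 104 FPKM, below all others by 0.316, and not so after GC adjustment.

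The 10 protein-coding genes with the largest margin below were read next. RPS24, a protein of the small ribosomal subunit, had the largest margin (1.88): 174, 215 and 216 FPKM in CD31+CD34+ libraries against 801, 1010.0 and 1156 FPKM in CD43+ and at least 1546 FPKM in APLNR+ and H1 libraries. FAM162A, a hypoxia-responsive mitochondrial protein, was at 1.92, 1.88 and 2.39 FPKM against 9.29, 11.8 and 12.6 FPKM in APLNR+ cells. TFRC, the transferrin receptor that brings iron into dividing and erythroid cells, was at 6.39, 7.31 and 7.55 FPKM against 24.2, 23.8 and 29.2 FPKM in CD43+ cells. TXN, thioredoxin, was at 20.6, 29.3 and 30.7 FPKM against 76.6, 78.6 and 90.3 FPKM. UQCRB, a subunit of respiratory complex III, averaged 31.6 ± 2.34 FPKM and EIF2S3, a subunit of the translation initiation factor eIF2, 20.8 ± 1.64 FPKM (SD, n = 3). RPL11 was at 378, 469 and 458 FPKM against at least 1262 FPKM in every other library. RPL22L1, RPS27L and RPL36A completed the 10. All 10 also lay below the 9 others with the GC trend taken out, but UQCRB (-1.68 before, -0.81 after) and EIF2S3 (-0.97 after) then fell short of a 2-fold difference from the nearest population.

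**Figure D5:**
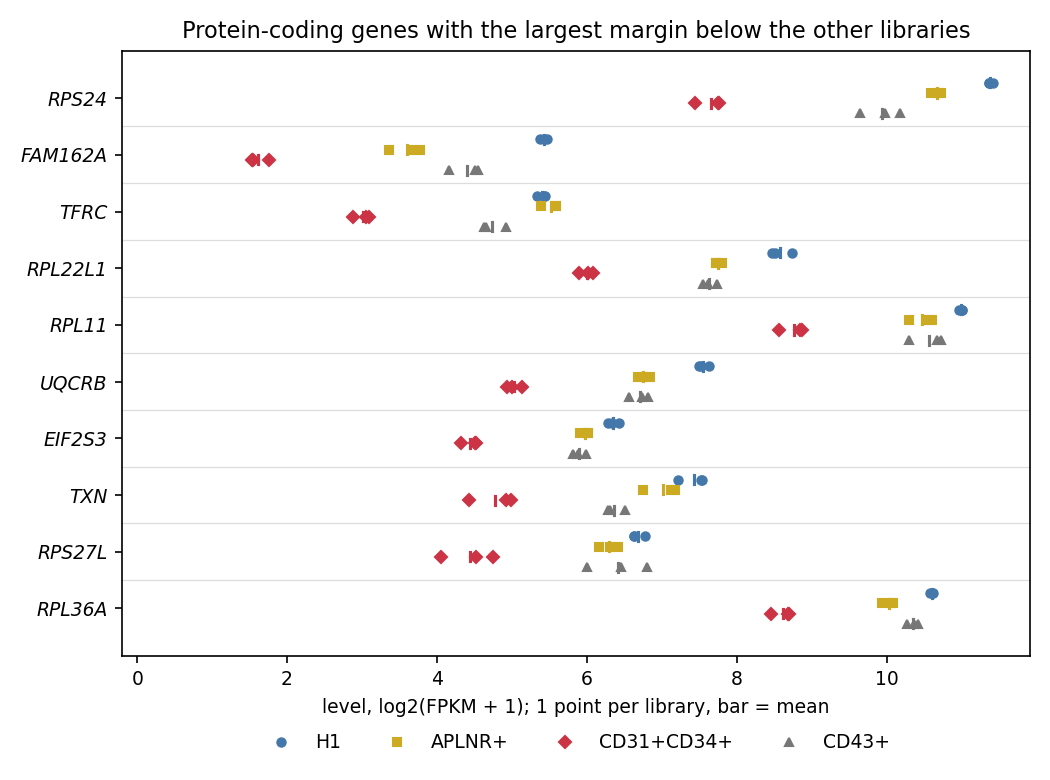
Levels of the 10 protein-coding genes with the largest margin below, in log2(FPKM + 1) on the horizontal axis, with 1 point per library and a bar at each population's mean. The 3 CD31+CD34+ points of every gene stand apart on the left, by 1.24 for RPL36A up to 1.88 for RPS24.

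Because several of these encode ribosomal proteins, all 82 tested genes of cytosolic ribosomal proteins were counted, a choice made after the values were seen. Of them 34 lay below all 9 other libraries and 0 above, and 18 were lowered against the nearest population by limma. Among all tested genes 12.2% lay below and 12.8% above, and 0.755% were lowered. Their median difference from the mean of the others was -0.54, against -0.06 for all genes, and their median GC content was 48.8%. After GC adjustment 38 lay below all others and 12 were lowered, with a median of -0.52. Of all 14593 genes with a GC value, 1388 lay below and 58 were lowered after adjustment. Many of these genes have processed pseudogenes with near-identical sequence (35.4% of RPL36A stretches occur elsewhere), which makes the values of single genes uncertain.

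Long noncoding genes made up 57 of the members above (3.01%) and 112 of those below (6.21%), against 1083 of all genes tested (7.3%). ERVH48-1, which encodes the syncytin blocker suppressyn, was at 9.82, 15.5 and 14.2 FPKM against at most 4.25 FPKM. EVX1-AS was at 6.08, 5.68 and 3.8 FPKM against 1.44, 1.32 and 1.08 FPKM in APLNR+ cells, and AC093673.1 at 14, 13.1 and 15.8 FPKM. Below, ZFAS1, the host of small nucleolar RNAs, was at 50.3, 45.4 and 49.6 FPKM against at least 106 FPKM elsewhere. THAP9-AS1 was at 6.07, 6.15 and 5.57 FPKM and AC090204.1 at 3.67, 4.51 and 4.4 FPKM. EVX1-AS, ZFAS1 and THAP9-AS1 overlap genes on the opposite strand, and whether reads were counted by strand is not given.

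At the edge of the rule the values were close. Just inside above were ANXA2, ARFGAP1 and KCTD12, with margins of 5.82e-05, 0.00014 and 0.000512. Just outside were KREMEN1 (-7.21e-05), GAB2 (-7.23e-05) and ILVBL (-0.00016). Just inside below were CHKA, CLK4 and FRRS1, with margins of 3.41e-05, 9.18e-05 and 9.36e-05. Just outside below were AC005083.1, RPL7P20 and RPS29P16, all listed at 0 in the CD31+CD34+ libraries and also in at least 1 other library.

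The promoters of the members were compared in words that transcription factors of this lineage bind. The 300 bases around each start site in RefSeq (GRCh38.p14, 250 before and 50 after) were found for 10376 of the tested genes, 1404 of the members above and 1294 of those below, and each word was searched on both strands. The ETS word CCGGAAG stood in 18.9% of tested promoters, 13.7% of those above and 27% of those below. In the 140 promoters of genes above by at least 1 on the log2 scale it stood in 3.57%. The ETS words GGAAGT and CCGGAAG overlap in part, and GGAAGT stood in 27.2% of tested promoters, 23.2% above, 16.4% above by at least 1 and 33.2% below. The ETS word ACAGGAA stood in 5.51% of tested promoters, 4.7% above, 8.57% above by at least 1 and 5.87% below.

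Among the genes above by at least 1, the SOX word ACAAAG stood in 17.9% of promoters, against 10.9% of those tested, 10.5% of all members above and 16% of all promoters of the table. ACAATG stood in 8.57%, against 6.18%, 5.48% and 11% in the same order, and TATAAA in 9.29%, against 5.45%, 4.77% and 12%. Beside the shares of tested promoters, the genes above by at least 1 had similar shares of the GATA word AGATAA (5.71% against 5.27%), the RUNX word TGTGGT (7.86% against 9.05%), the E-box words CAGCTG (15.7% against 16.8%) and CATCTG (10.7% against 9.44%) and the GC box GGGCGG (68.6% against 70.3%). Promoters of members above had a median GC content of 68% and those below 63%, against 65.3%, and over all 27305 promoters of the table CCGGAAG stood in 10.7%. These shares are a description of the sequences, and a word is not a bound site.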

How the data were processed

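RNA-seq of 12 libraries, 3 each of H1, APLNR+, CD31+CD34+ and CD43+ cells, was read from 1 table of FPKM per gene that the authors deposited. The submitters' notes name BWA, Bowtie, RSEM and hg19 without role or version. Strand use is not given in the sources used here. The table had 58365 gene lines and 56593 symbols. Of lines that share a symbol, that of the highest mean level stayed, and 14840 genes with at least 1 FPKM in 3 or more libraries were tested.

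Levels were analysed as log2(FPKM + 1) with limma 3.58.1 in R 4.3.3, fitting all 4 populations with an intensity trend and Benjamini-Hochberg adjustment over all tested genes. A call needed an adjusted p under 0.05 and a log2 difference of at least 1, either from the mean of the other populations or from each of them. Tables and figures were made in Python 3.11.15. On simulated data with 200 changed genes among 14840, 199 were called against the mean and 197 against the nearest population. Of the unchanged genes 1 and 0 were called. The simulated other populations did not differ from each other, had no GC trend, and only genes of higher level were changed. Recovery in the real data can therefore be lower. Absolute depth is unknown, so no counting intervals are given.

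Members and lists were chosen with earlier results of these data known, and 1 gene list is not reported here. By rule, the genes named were the markers and sorted proteins, the 15 coding and 3 long noncoding genes with the largest margin above (CD31+CD34+ mean of at least 5 FPKM), the 10 and 3 with the largest margin below (lowest mean of the other populations of at least 5 FPKM), the 3 nearest either side of the rule's edge, and up to 4 genes of each list with the largest difference from the nearest population. Other list genes named, such as STAB1, TIE1 and RUNX1, were picked for their roles with their values known. Alternatives were the pseudocount, filter, scaling, a fit of 2 groups, a replicate block, leaving out each library and, added after the data were seen, removal of the GC trend. Same-numbered libraries did not deviate together in every pair over the 4 populations, so the replicate number was not used as pairing in the reported fit.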

Additional observations from a re-analysis of the deposited data

How the results depend on the processing

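Absolute depth is unknown, exact zeros can be failed estimates, all cells came from a single line, and the labels do not state separate cultures. With 3 libraries in each population, p-values rest on small spreads. Against the main counts of 1374 raised and 1624 lowered (mean of the others) and 356 raised and 112 lowered (nearest population), removing the minimum difference gave 5024, 5927, 1580 and 1345, and a minimum of 2 on the log2 scale gave 305, 105, 61 and 1. A pseudocount of 0.1 gave 2779 lowered against the mean and 359 against the nearest. With a mean of at least 5 FPKM (8622 genes, so fewer could be called) 229 were raised against the nearest and 1159 lay below all others. A fit of 2 groups gave 911 raised and 840 lowered, since differences among the other populations then count as spread. With the GC trend taken out, 811 were lowered against the mean and 58 against the nearest, with or without the replicate block. No count changed by over 1.5 times under the remaining alternatives.

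Leaving out each library in turn gave 1301 to 1443 raised and 1484 to 1718 lowered against the mean, 336 to 392 raised and 82 to 141 lowered against the nearest, 1903 to 2442 above all others and 1811 to 2190 below. Among 38 genes run singly (markers, sorted proteins and largest margins) none changed direction, nor did any of the 71 listed genes called against the nearest population. Most of these genes were chosen for large differences in the same libraries, so a kept direction is no independent support. CD34 fell under the 2-fold minimum with quantile normalization (0.997), and AC090204.1 (-0.42), EIF2S3 (-0.97), EVX1-AS (0.82), THAP9-AS1 (-0.97) and UQCRB (-0.81) did so with the GC trend taken out. Of the 71 listed genes, 17 lost the call with the GC trend taken out, 9 with quantile normalization, 2 with upper-quartile scaling and 0 with a pseudocount of 0.1. Leaving out 1 library ended 0 to 4 of those calls, all of BGN, CD34, DHCR7, LPL, MSX1 and PXDN, whose differences were then 0.92 to 0.995. The causes were not tested.

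Same-numbered libraries of the 18 pairs had correlated deviations of -0.02 to 0.43, of which 12 were over 0.1. All replicate 1 pairs were at 0.2 to 0.43, the CD31+CD34+ and CD43+ pairs at 0.39, 0.21 and 0.19, and those of replicate 3 between H1 and APLNR+ cells at -0.02. What a shared number stands for is not given in the labels. With the replicate block the counts were 1379 raised and 1628 lowered against the mean and 358 raised and 112 lowered against the nearest, and none of the 71 calls of listed genes changed.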
